A study of Mus musculus with 14 samples.

Results

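Transcripts of 10 transcription factors of the Schwann cell (SC) lineage were followed by bulk RNA-seq. The comparison ran from control tissue labelled as dorsal root ganglia (DRGs) to plexiform neurofibromas (PNs). The 10 genes were chosen by symbol from the count table, in which all 10 were present among 24062 genes. They were *Sox10*, *Sox2*, *Pou3f1*, *Pou3f2*, *Zeb2*, *Tfap2a*, *Tfap2b*, *Foxd3*, *Pax3*, and *Nr2f2*. Total RNA came from control tissue labelled DRG of genotype Nf1fl/fl (n = 3), and from neurofibromas of DhhCre;Nf1fl/fl mice that were labelled as slow growing (n = 5) or fast growing (n = 6). By their labels all groups carried the floxed *Nf1* alleles, shared a mixed background of C57BL/6, I-129 and FVBN, and received no drug. The title given with the data calls the Nf1fl/fl controls wild type, and the study's methods call the control tissue DRGs/nerves. The study's methods give an age of 9 months, while a figure legend calls the PNs of the bulk comparison 7 months old. Slow PNs had changed by less than 5 mm3 and fast PNs had grown by more than 35 mm3 within 2 months, from a first MRI at 7 months. In this model Cre is driven by the *Dhh* promoter, so *Nf1* is removed in the SC lineage and not in the other cells of the tumor. The labels do not state whether each library is a separate animal, and the p-values below measure the spread between these libraries.

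SCs descend from the neural crest through SC precursors and immature SCs, and then become myelinating or nonmyelinating cells. *Sox10* is needed at every one of these stages. *Foxd3*, *Pax3*, and the AP-2 factors *Tfap2a* and *Tfap2b* act in the crest and in early precursors, and *Sox2* holds SCs in the immature state. *Pou3f1* (also called Oct6 or SCIP) and *Pou3f2* (Brn2) are POU factors of the promyelinating cell, and *Zeb2* represses inhibitors of differentiation so that myelination can proceed. *Nr2f2* (COUP-TFII) is a nuclear receptor of the crest that is also made by other cells, including endothelial cells of veins.

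The libraries held between 9596773 and 17594164 counts on genes. Levels are given as CPM, counts scaled to the TMM-normalized library size, and 3 counts of a gene correspond to between 0.166 and 0.317 CPM, a floor that covers counting error only. *Nf1* itself was at 131 to 229 CPM in controls, 224 to 293 CPM in slow PNs, and 224 to 276 CPM in fast PNs, and counts per gene do not separate its floxed exons, so it does not check the genotype. All 13 sensory neuron markers were present in every control, with *Isl1* at 7.61 to 23.0 CPM and *Pou4f1* at 12.6 to 33.6 CPM. Slow PNs held them as well, with *Isl1* at 11.1 to 70.6 CPM and *Pou4f1* at 18.9 to 152 CPM. None of the 13 was called between PNs and controls, so their presence does not set the tissue labelled DRG apart from PNs. Control DRG3 stood apart from the other controls. Its 8 pan-Schwann markers (transcripts of most SCs and satellite glia, such as *Erbb3* and *Cdh19*) summed to 1230 CPM, against 567 in DRG4 and 466 in DRG5. In slow PNs that sum ranged from 1610 to 2370 CPM and in fast PNs from 1940 to 2450 CPM, above every control. Of the 8 markers 5 were called higher in PNs and none lower, where 12.9% of all genes tested were called higher. Skeletal muscle markers summed to 3800, 8790, and 15600 CPM in DRG3, DRG4, and DRG5, and to between 29.2 and 3620 CPM in the PNs, while fat markers summed to between 4820 and 7470 CPM in controls and between 33.5 and 3770 CPM in PNs. These lists moved with the group, and beyond the fits with list scores given below their part in the results was not tested. Fewer cells of a type and less RNA per cell cannot be told apart in such bulk samples. One fast PN, 1191, was nearly free of neuronal transcripts, with a marker sum of 26.9 CPM against 2520 to 8320 CPM in the other fast PNs.

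**Figure D1:**
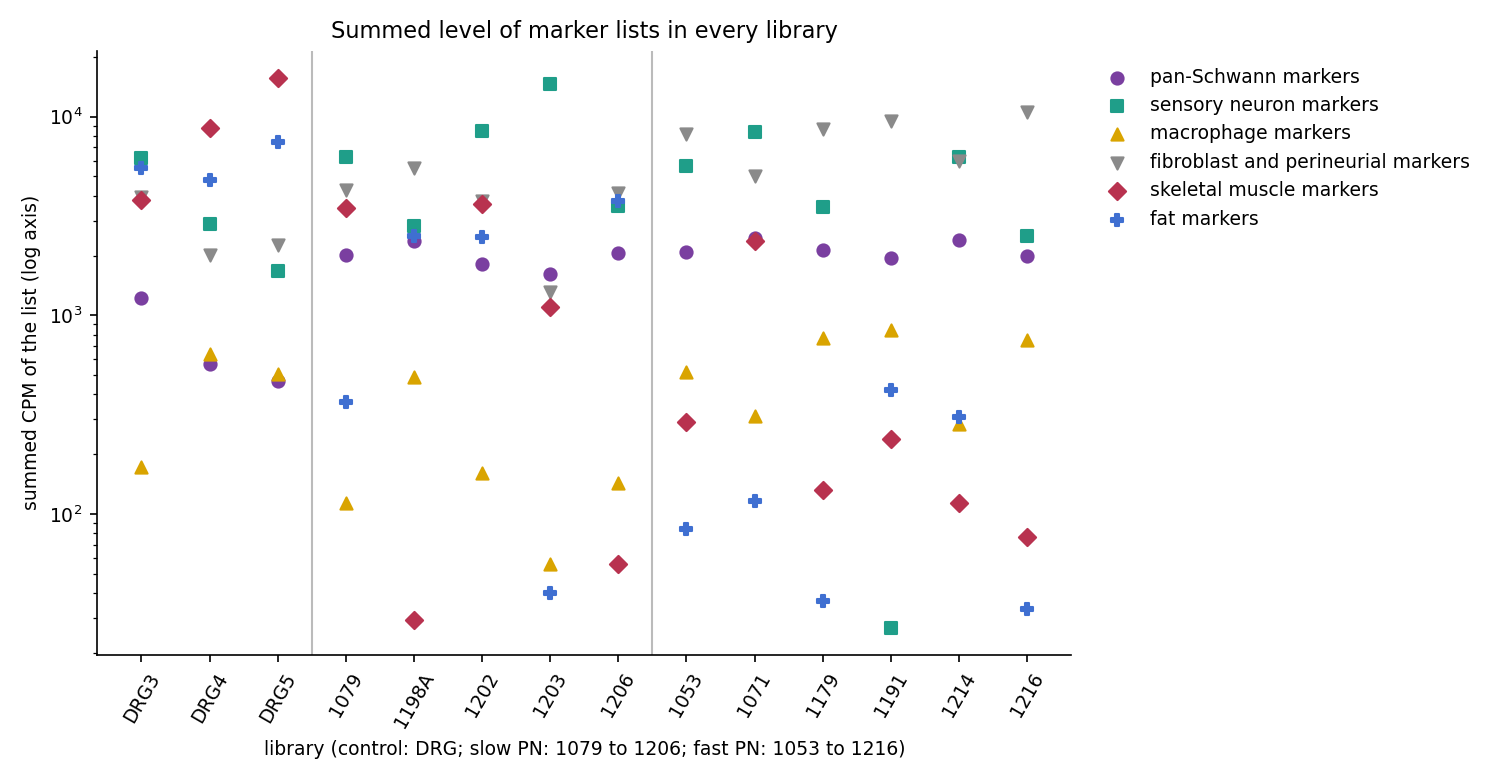
Summed CPM (log axis) of 6 marker lists in each of the 14 libraries, with vertical lines between controls, slow PNs, and fast PNs. Pan-Schwann markers are lowest in the 3 controls (466 to 1230 CPM), in which fat markers are highest, and the neuron markers of fast PN 1191 sum to 26.9 CPM.

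When all 11 PNs were compared with the 3 controls, 8 of the 10 factors were higher in PNs and none was lower. The rises ran from *Zeb2* (2.20-fold) and *Sox10* (2.44-fold) through *Sox2* (5.78-fold) and *Pou3f1* (5.87-fold) to *Tfap2b*, which was nearly absent from controls. *Foxd3* (2.76-fold) lay just outside the threshold of edgeR's test and *Pax3* (0.694-fold) was the only factor with a lower estimate. All 10 factors passed the expression filter in every comparison. Of the 16283 genes tested, 26.3% were called in either direction and 12.9% were called higher, beside 8 of 10 factors. The 10 factors were chosen with earlier results of these data known, so these shares are set side by side as a description. The low control counts of *Sox2*, *Pou3f1*, and *Tfap2b* let these 3 pass the expression filter only with the PNs. Their calls add nothing to the count of 8 as support. The median log2 fold change of the 10 factors was 1.69, against 0.10 over all genes tested. That median includes *Sox2*, *Pou3f1*, and *Tfap2b* and is a description only. Tests were edgeR's quasi-likelihood tests with Benjamini-Hochberg adjustment over all genes tested and a call at an adjusted p under 0.05. At an unadjusted p under 0.05, no factor was lower and 9 were higher, and DESeq2 and limma-voom also called none lower. The groups did not overlap for 3 factors, *Pou3f2*, *Tfap2a*, and *Tfap2b*, for which every PN lay above every control, and 8.18% of all genes tested had that pattern. *Tfap2b* passed the filter only with the PNs, so its separation adds nothing to this count as support. When scores of the skeletal muscle and fat lists were added to the fit, 1 factor was called, *Tfap2b* (adjusted p = 0.035), and 545 of all genes tested. The log2 fold changes of the other called factors were then 0.013 for *Zeb2*, 0.31 for *Tfap2a*, 0.58 for *Nr2f2*, 0.78 for *Sox2*, 0.84 for *Sox10*, 1.46 for *Pou3f1*, and 1.496 for *Pou3f2*. Without control DRG4 there were 3 calls and without DRG5 there were 2, and *Sox10*, *Sox2*, *Zeb2*, *Tfap2a*, and *Nr2f2* missed the threshold in both cases. The calls over all genes fell as well, from 4283 to 2476 and 2061, and the log2 fold changes of these 5 factors were then between 0.97 and 2.15. *Pou3f1* missed the threshold without DRG5 but not without DRG4, with a log2 fold change of 2.35 without DRG5 (adjusted p = 0.0515).

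**Figure D2:**
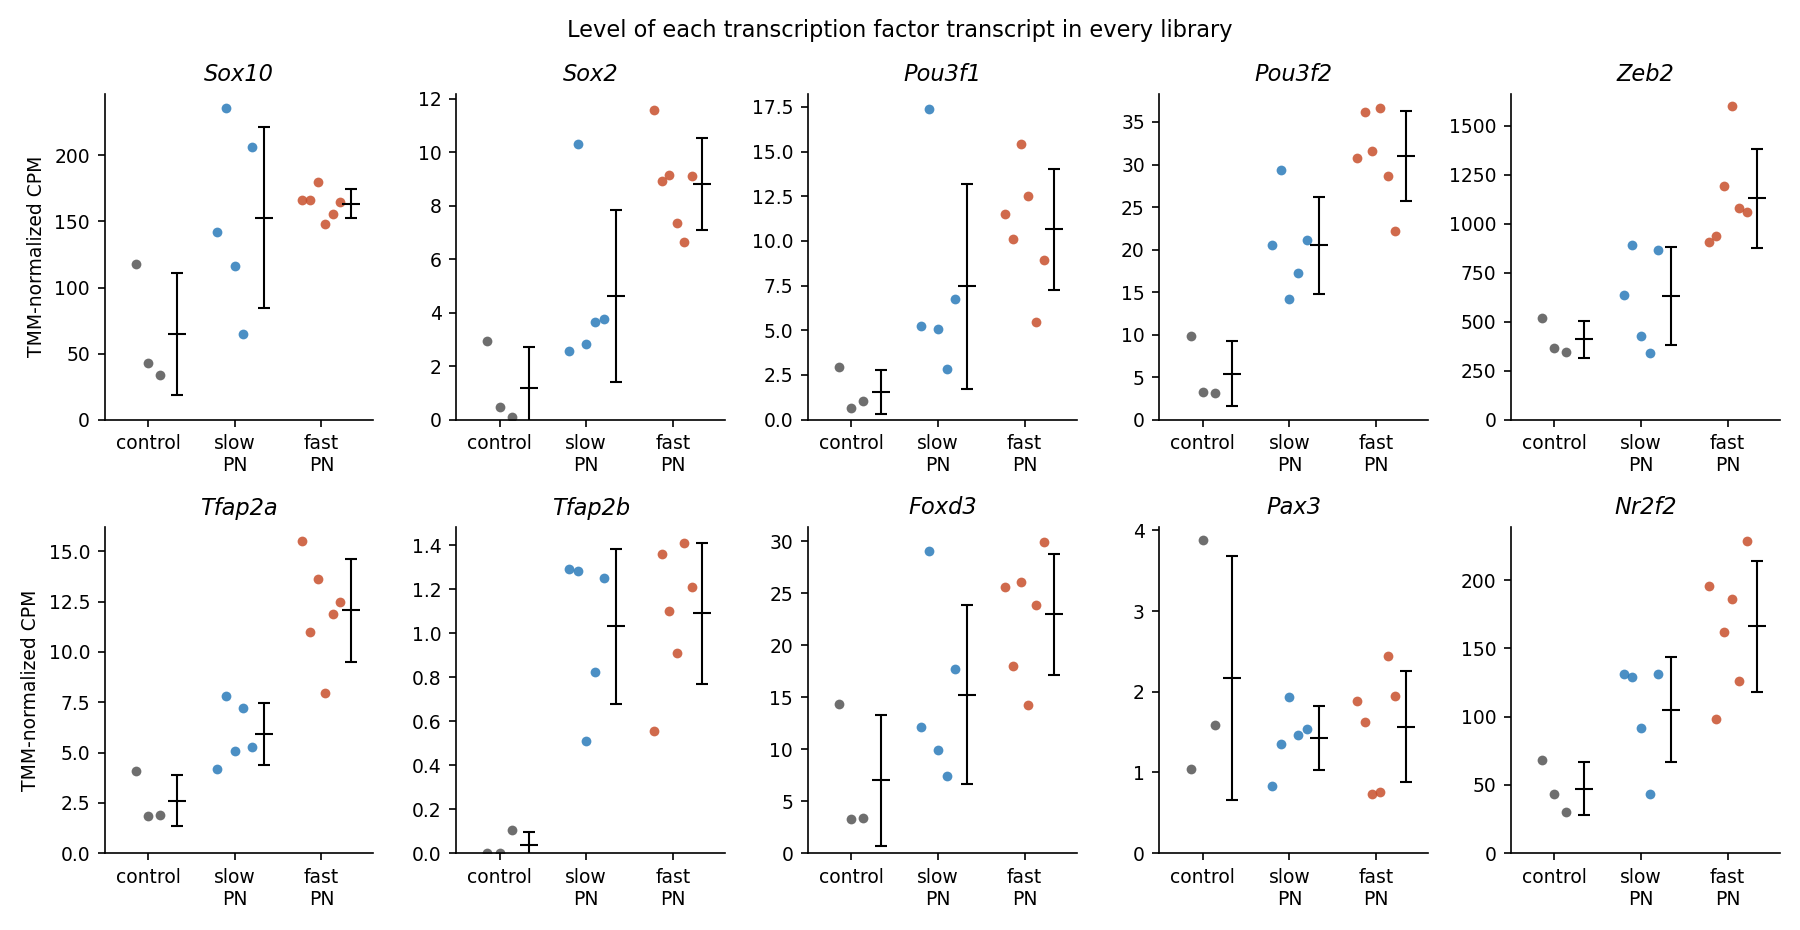
TMM-normalized CPM of each of the 10 transcripts in each library (points), with the mean and SD of each group as bars at the right of the points. *Pou3f2*, *Tfap2a*, and *Tfap2b* show no overlap between the 3 controls and the 11 PNs, and DRG3 is the highest control for all factors but *Tfap2b* and *Pax3*.

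*Sox10*, an SRY-box factor that marks the SC lineage, lies at chr15:79154908-79165240 on the minus strand (mm10), with 4 annotated transcripts. Its level was 118, 43.2, and 33.6 CPM in DRG3, DRG4, and DRG5. In slow PNs it was 142, 236, 116, 65.0, and 206 CPM in 1079, 1198A, 1202, 1203, and 1206. Fast PNs ran from 148 to 180 CPM with a median of 165. Slow PNs 1202 and 1203 lay below DRG3, whereas every fast PN exceeded every control. The fast PNs were also close to each other, at 163 ± 10.8 CPM (SD, n = 6), while slow PNs were at 153 ± 68.9 CPM (SD, n = 5) and controls at 65.1 ± 46.5 CPM (SD, n = 3). The log2 fold change of PNs over controls was 1.29 (standard error 0.39, adjusted p = 0.0241). Slow PNs were 2.30-fold higher than controls by estimate (adjusted p = 0.166) and fast PNs 2.45-fold higher (adjusted p = 0.018). Fast and slow PNs differed by 0.09 (standard error 0.27, adjusted p = 0.866), with a 95% interval from -0.43 to 0.62.

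*Sox2* (chr3:34650405-34652461, plus strand), a single-exon gene of pluripotent and immature neural cells, was low throughout. Its counts in the controls were 34, 5, and 1, or 2.94, 0.462, and 0.106 CPM. Slow PNs gave 2.58, 10.3, 2.84, 3.65, and 3.76 CPM in 1079, 1198A, 1202, 1203, and 1206. Fast PNs ranged from 6.66 to 11.6 CPM with a median of 9.02. A single slow PN, 1198A, was at the level of the fast PNs, and slow PNs 1079 and 1202 lay below DRG3. The log2 fold change over controls was 2.53 for all PNs (standard error 0.75, adjusted p = 0.0224), 1.92 for slow PNs (adjusted p = 0.184), and 2.85 for fast PNs (standard error 0.71, adjusted p = 0.0135). *Sox2* was 1.89-fold higher in fast than in slow PNs by estimate (log2 0.92, standard error 0.35, adjusted p = 0.167), and without slow PN 1198A this difference was 1.45 on the log2 scale with an adjusted p of 0.00512.

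The POU factors were both higher in PNs. *Pou3f1* (chr4:124656807-124660655, plus strand, with an annotated gene, *Gm2164*, on the opposite strand) was at 2.94, 0.647, and 1.06 CPM in the controls. In slow PNs it was 5.24, 17.4, 5.08, 2.83, and 6.75 CPM in the same library order as above, and fast PNs ran from 5.47 to 15.4 CPM with a median of 10.8. Of the 11 PNs, 10 exceeded the highest control, the exception being slow PN 1203. Its log2 fold change in PNs was 2.55 (standard error 0.61, adjusted p = 0.0071), with 2.22 in slow PNs (adjusted p = 0.084) and 2.73 in fast PNs (adjusted p = 0.00333).

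*Pou3f2* (chr4:22482780-22488366, minus strand) separated PNs from controls fully, while slow and fast PNs overlapped. Controls were at 9.85, 3.24, and 3.17 CPM, slow PNs at 20.5, 29.4, 14.2, 17.2, and 21.1 CPM, and fast PNs between 22.2 and 36.6 CPM with a median of 31.2. The lowest PN was thus above the highest control. The log2 fold change of PNs was 2.27 (standard error 0.40, adjusted p = 0.000973), and *Pou3f2* was called in slow PNs (1.88, standard error 0.44, adjusted p = 0.0303) and in fast PNs (2.47, standard error 0.38, adjusted p = 0.00117). Between fast and slow PNs, both POU factors had positive estimates that missed the threshold, 0.51 for *Pou3f1* (adjusted p = 0.523) and 0.60 for *Pou3f2* (adjusted p = 0.114).

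*Zeb2*, a zinc-finger repressor, had the most counts of the 10 factors. It lies at chr2:44983632-45117395 on the minus strand, with 29 annotated transcripts, and the overlapping genes *Zeb2os* and *Mir5129* also have rows in the table. Whether reads were counted by strand is not given in the sources used here, so reads of *Zeb2os* and *Zeb2* cannot be told apart. Controls were at 518, 365, and 346 CPM, slow PNs at 636, 890, 425, 342, and 865 CPM, and fast PNs between 905 and 1600 CPM with a median of 1070. Slow PN 1203 was below all controls, and every fast PN was above every slow PN. The log2 fold change of PNs was 1.14 (standard error 0.39, adjusted p = 0.0419), near the threshold. It was 0.59 in slow PNs (adjusted p = 0.292) and 1.42 in fast PNs (standard error 0.24, adjusted p = 0.00185). Correction for gene length and GC ended the call for all PNs, with 0.89 on the log2 scale and an adjusted p of 0.14. That call was also lost without any of 10 libraries, namely each control, each fast PN, and slow PN 1198A, with the adjusted p between 0.0118 and 0.175 over all libraries left out.

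*Zeb2* is also made by macrophages, and values for that cell type are given beside it. The 10 macrophage markers summed to 173 to 641 CPM in controls, 56.1 to 489 CPM in slow PNs, and 285 to 849 CPM in fast PNs, and none of them was called between PNs and controls. In fast PNs 1 of the 10 was called higher than in controls and 1 higher than in slow PNs, where the median log2 fold change of the list was 1.69. Over all genes tested 14.8% were called higher in fast PNs than in controls and 0.802% higher than in slow PNs. Fast PN 1191 had the highest macrophage sum and the highest *Zeb2* level, and slow PN 1203 the lowest of both among PNs. Among controls the order differed, with the lowest macrophage sum and the highest *Zeb2* level in DRG3 (173 and 518 CPM) and the highest macrophage sum in DRG4 (641 CPM, with *Zeb2* at 365 CPM). The part of macrophages in the *Zeb2* levels was not tested.

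The AP-2 factors *Tfap2a* and *Tfap2b* both separated PNs from controls without overlap. Their RefSeq promoter windows (GRCm38.p6, 250 bases before to 50 after an annotated start) are shown because *Tfap2a* was called between fast and slow PNs and *Tfap2b* was not. That contrast between the 2 genes was not tested. Capitals mark a match to the SOX core motif ACAAT on either strand, which 30.8% of 32544 promoter windows of this length hold. Windows were listed for 7 of the 10 factors.
Tfap2b (chr1:19211804-19212103, plus strand): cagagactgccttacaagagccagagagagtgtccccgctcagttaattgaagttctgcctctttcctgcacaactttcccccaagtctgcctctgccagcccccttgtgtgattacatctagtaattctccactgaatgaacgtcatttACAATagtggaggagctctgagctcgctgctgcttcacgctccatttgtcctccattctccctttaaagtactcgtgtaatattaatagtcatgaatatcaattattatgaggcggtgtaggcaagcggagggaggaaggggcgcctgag
Tfap2a, upstream start (chr13:40734871-40735170, minus strand): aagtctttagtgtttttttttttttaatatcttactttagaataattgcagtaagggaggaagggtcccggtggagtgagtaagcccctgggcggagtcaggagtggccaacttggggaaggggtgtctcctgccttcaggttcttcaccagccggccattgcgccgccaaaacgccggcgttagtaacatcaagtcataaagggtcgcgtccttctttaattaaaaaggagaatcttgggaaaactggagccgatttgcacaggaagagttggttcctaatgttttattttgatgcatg
Tfap2a, downstream start (chr13:40733746-40734045, minus strand): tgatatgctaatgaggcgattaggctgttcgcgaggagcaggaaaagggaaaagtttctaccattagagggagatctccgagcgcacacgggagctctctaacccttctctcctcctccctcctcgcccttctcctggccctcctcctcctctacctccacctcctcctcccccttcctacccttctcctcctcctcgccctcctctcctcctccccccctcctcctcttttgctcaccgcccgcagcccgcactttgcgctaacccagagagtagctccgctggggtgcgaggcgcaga
The only match in these 3 windows was in *Tfap2b*, at base 151 of the window. The motifs CACCTG, ATGCAAAT, and GCCNNNGGC (ZEB, POU octamer, and AP-2 motifs) were not found in them on either strand, and are held by 20.3%, 1.75%, and 16.7% of all windows. The *Tfap2b* window had 8 CpG sites and a GC content of 48.3%, the upstream *Tfap2a* window 11 CpG sites and 46.3%, and the downstream *Tfap2a* window 15 CpG sites and 61.0%. A match here is a description of letters and not a binding site.

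*Tfap2a* (chr13:40715302-40738376, minus strand, 9 transcripts, with *Gm26688*, *Gm47061*, and *Gm47067* on the opposite strand) was at 4.06, 1.85, and 1.90 CPM in the controls. Slow PNs were at 4.18, 7.82, 5.08, 7.21, and 5.30 CPM, and fast PNs ranged from 7.94 to 15.5 CPM with a median of 12.2. The 3 groups did not overlap, though the lowest slow PN was only just above DRG3 and the lowest fast PN only just above slow PN 1198A. Its log2 fold change over controls was 1.83 in all PNs (standard error 0.44, adjusted p = 0.00815), 1.14 in slow PNs (standard error 0.37, adjusted p = 0.0829), and 2.16 in fast PNs (standard error 0.32, adjusted p = 0.00102).

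*Tfap2b* (chr1:19208914-19238576, plus strand, 5 transcripts) had 0, 0, and 1 count in DRG3, DRG4, and DRG5. A count of 0 allows up to 0.259 CPM in DRG3 and 0.277 CPM in DRG4. In slow PNs there were 17, 17, 5, 9, and 13 counts, or 1.29, 1.28, 0.508, 0.821, and 1.25 CPM. In fast PNs there were 10 to 20 counts, or 0.553 to 1.41 CPM with a median of 1.15. Every PN was above every control, although no library reached 2 CPM. The ratio of the count rate of PNs (155 counts) to that of controls (1 count) was 33.9, with an exact 95% interval of 5.99 to 1350 that covers counting error only. The fitted log2 fold changes of 4.68 in all PNs (adjusted p = 0.000349), 4.57 in slow PNs (adjusted p = 0.0145), and 4.68 in fast PNs (adjusted p = 0.00224) depend on the prior count and are not bounds. Fast PN 1191, nearly without neuronal transcripts, had 12 *Tfap2b* counts, or 0.908 CPM, which was within the range of the other fast PNs. Without control DRG4, the adjusted p in slow PNs was 0.0711.

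*Foxd3* (chr4:99656299-99658622, plus strand), a forkhead factor of the crest and of early glia, was at 14.3, 3.33, and 3.38 CPM in controls, at 12.1, 29.1, 9.95, 7.39, and 17.7 CPM in slow PNs, and between 14.2 and 29.9 CPM in fast PNs with a median of 24.8. The high control, DRG3, overlapped with 3 slow PNs and with fast PN 1191, and 7 of 11 PNs exceeded it. Its log2 fold change in PNs was 1.47 (standard error 0.52, adjusted p = 0.0502), in slow PNs 1.09 (adjusted p = 0.263), and in fast PNs 1.67 (standard error 0.49, adjusted p = 0.0268). It was called in PNs by DESeq2 (adjusted p = 0.0124), with library size alone as scaling (adjusted p = 0.0382), with all 3 groups in one fit (adjusted p = 0.0474), and after the length and GC correction (adjusted p = 0.0286). With muscle and fat scores in the fit the value was 0.075 (adjusted p = 0.95), the highest p among its alternatives. Without DRG3 the value for all PNs was 2.54 with an adjusted p of 0.00459, and the fast PN call was lost without DRG4 (adjusted p = 0.0953), without DRG5 (adjusted p = 0.1), and without fast PN 1216 (adjusted p = 0.0509). The transcript *Gm23366* lies within *Foxd3* on the same strand and has no row of its own in the table.

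*Pax3*, a paired-box factor of the crest and of melanocyte and muscle precursors (chr1:78101267-78197134, minus strand), was not called in any comparison. It had 12, 42, and 15 counts in the controls, or 1.04, 3.88, and 1.59 CPM. The slow PNs were at 0.836, 1.35, 1.93, 1.46, and 1.54 CPM and the fast PNs between 0.732 and 2.44 CPM with a median of 1.76. All PNs lay below DRG4 and overlapped with DRG3 and DRG5. The log2 fold change in PNs was -0.53 (standard error 0.42, adjusted p = 0.374, 95% interval -1.35 to 0.29), and without DRG4 it was 0.20. The skeletal muscle sums of DRG3, DRG4, and DRG5 were 3800, 8790, and 15600 CPM. With muscle and fat scores together in the fit *Pax3* was again not called in any comparison, and the part of muscle alone in its levels was not tested.

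*Nr2f2* (chr7:70351944-70366735, minus strand, 6 transcripts) overlaps with *B130024G19Rik* on the opposite strand, which has its own row. Controls were at 68.3, 43.3, and 30.5 CPM, slow PNs at 131, 129, 91.5, 43.2, and 131 CPM, and fast PNs between 98.1 and 229 CPM with a median of 174. All PNs but slow PN 1203 were above every control. The log2 fold change was 1.55 in PNs (standard error 0.41, adjusted p = 0.0132), 1.12 in slow PNs (adjusted p = 0.115), and 1.77 in fast PNs (standard error 0.34, adjusted p = 0.00356). Marker levels of other cell types that make *Nr2f2* are given beside it. Of 11 endothelial markers, 6 were lower and none higher in PNs (summed 439 to 678 CPM in controls and 124 to 549 CPM in PNs), while fibroblast and perineurial markers summed to 2020 to 3960 CPM in controls, 1310 to 5530 CPM in slow PNs, and 5030 to 10500 CPM in fast PNs, with 1 of 10 called lower in PNs and none higher. In fast PNs against controls 7 of those 10 were called higher, where 14.8% of all genes tested were. Between PNs and controls 12.9% of all genes tested were called higher and 13.4% lower. Their part in the level of *Nr2f2* was not tested.

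Slow and fast PNs were each compared with the same 3 controls, so the 2 sets of values share their reference and are given side by side only. In slow PNs 2 of the 10 factors were called higher, *Pou3f2* and *Tfap2b*, where 4.12% of 15714 genes were called higher. With 0, 0, and 1 control counts, *Tfap2b* could pass the expression filter only through the PNs, in every comparison with controls, so its call adds nothing to these counts as support. *Sox2* (34, 5, and 1 control counts) and *Pou3f1* (34, 7, and 10) likewise needed the PNs to pass it. In fast PNs 9 of 10 were called higher, all but *Pax3*, where 14.8% of 16037 genes were. The calls of *Sox2*, *Pou3f1*, and *Tfap2b* among these 9 add nothing as support. The median log2 fold change of the 10 factors, these included, was 1.17 in slow PNs and 1.97 in fast PNs, as a description only. The slow PN count rested on single libraries. Without DRG3 it was 7, without DRG4 it was 0, and without DRG5 it was 1, while the calls over all genes were 2454, 685, and 599, against 1769 with all libraries. For *Pou3f2* the log2 fold change was 1.62 without DRG4 and 1.61 without DRG5, against 1.88 with all libraries. The count was also 0 without slow PN 1079, without 1198A, and without 1206, fits in which *Tfap2b* did not pass the expression filter and *Pou3f2* had adjusted p-values of 0.057, 0.0503, and 0.0575. The fast PN count stayed between 6 and 9 when each library was left out, with *Sox10* and *Foxd3* lost without DRG4 and without DRG5, and *Sox2* without DRG4 alone. Other tissue differed between the comparisons too. Of the skeletal muscle markers 1 of 14 was lower in slow PNs and 12 of 14 in fast PNs, and of the fat markers 1 of 13 and 13 of 13. Over all genes tested 7.13% were called lower in slow PNs and 16.7% in fast PNs. With scores of the muscle and fat lists in the fit neither the slow nor the fast PN comparison had a call, for the 10 factors or for any other gene. As both scores were separate between controls and PNs, that fit cannot separate tissue from group. In that fit some estimates in fast PNs were as large as before, with log2 fold changes of 2.89 for *Pou3f2*, 1.51 for *Zeb2*, and 4.92 for *Tfap2b*, while others were smaller, with 0.40 for *Sox10* and 0.13 for *Nr2f2*. *Tfap2b* was at 4.07 in slow PNs.

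**Figure D3:**
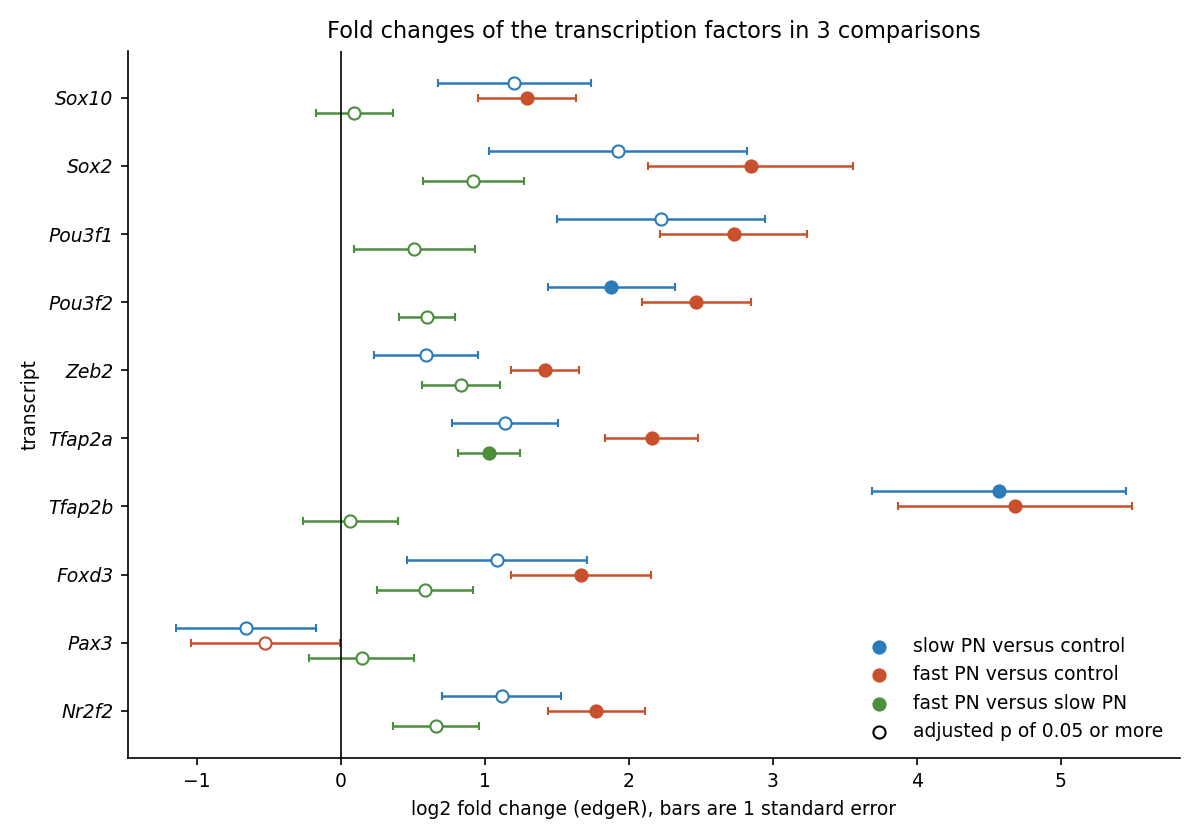
Log2 fold change of each transcript from edgeR, with 1 standard error, for slow PNs and fast PNs against the same controls and for fast against slow PNs. Filled points have an adjusted p under 0.05: *Pou3f2* and *Tfap2b* in slow PNs, 9 of 10 transcripts in fast PNs, and *Tfap2a* alone between fast and slow PNs.

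The direct comparison of growth groups gave 1 call. *Tfap2a* was 2.04-fold higher in fast than in slow PNs (log2 1.03, standard error 0.21, adjusted p = 0.0484), and 0.802% of 15465 genes were called higher. All 10 estimates were positive, from 0.06 for *Tfap2b* to 1.03 for *Tfap2a*, with a median of 0.59 against -0.03 over all genes tested. The groups did not overlap for *Tfap2a* and *Zeb2*, where every fast PN exceeded every slow PN, and 2.10% of all genes tested had that pattern. *Zeb2* was 1.79-fold higher by estimate (log2 0.84, standard error 0.27, adjusted p = 0.113). The *Tfap2a* call was at the edge of the threshold and was lost with RLE scaling (adjusted p = 0.0511), with limma-voom (adjusted p = 0.0538), and without any of 8 libraries, for which the adjusted p reached 0.129. Its log2 fold change stayed between 0.94 and 1.15 when each library was left out. Without a filter on low counts the adjusted p of *Tfap2a* was 0.0555. With muscle and fat scores in the fit its log2 fold change was 0.74 (adjusted p = 0.411), and with the pan-Schwann score it was 0.84 (adjusted p = 0.132). In DESeq2's Wald test *Tfap2a* and *Zeb2* were called. The unadjusted 95% interval of the log2 difference ran from 0.23 to 1.60 for *Sox2*, from 0.22 to 0.98 for *Pou3f2*, from 0.071 to 1.25 for *Nr2f2*, and from 0.31 to 1.37 for *Zeb2*. It spanned 0 for 5 factors, from -0.32 to 1.33 for *Pou3f1*, from -0.065 to 1.24 for *Foxd3*, from -0.59 to 0.72 for *Tfap2b*, from -0.57 to 0.86 for *Pax3*, and as given above for *Sox10*.

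Levels of different genes can be compared only per length, here as mean CPM per kilobase of the longest annotated transcript. In fast PNs the order was *Zeb2* (124), *Sox10* (58.8), *Nr2f2* (39.4), *Foxd3* (9.87), *Pou3f2* (5.55), *Sox2* (4.27), *Tfap2a* (3.46), *Pou3f1* (2.76), *Pax3* (0.405), and *Tfap2b* (0.186). The ranges over the 6 fast PNs were separate between *Zeb2* and *Sox10*, between *Nr2f2* and *Foxd3*, and between *Pou3f1* and *Pax3*, and overlapped for every other pair of neighbours in this order. The 5 factors from *Foxd3* to *Pou3f1* thus form a run in which neighbours overlapped. In controls the first 5 places were the same, at 44.9 for *Zeb2*, 23.4 for *Sox10*, 11.2 for *Nr2f2*, 3.02 for *Foxd3*, and 0.97 for *Pou3f2*. There *Sox2* (0.568), *Pax3* (0.561), and *Pou3f1* (0.402) were at nearly one level, with overlapping ranges.

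Because pan-Schwann markers were themselves higher in PNs, each factor was also set against them within the same library, as log2(CPM + 1) of the factor minus the mean of the 8 markers. Of the 8 markers, *Ngfr* and *Gfra3* were low in fast PN 1191, the library nearly without neuronal transcripts, at 27.6 and 4.39 CPM, against 166 to 370 and 21.2 to 37.2 CPM in the other fast PNs, and among slow PNs both were highest in 1203, at 482 and 33.8 CPM. The mean of the markers was 6.98 in 1191 and 7.55 to 7.80 in the other fast PNs, and a lower reference gives a higher relative level. With *S100b* and *Erbb3* alone as the reference, no test passed either. On this scale none of the 20 tests (10 factors, PNs against controls and fast against slow PNs) passed after Benjamini-Hochberg adjustment in two-sided exact permutation tests, and 3 had an unadjusted p under 0.05. The smallest p that the group sizes allow is 0.00549 for PNs against controls and 0.00433 between growth groups, so a single factor could not pass over 20 tests however large its change, and the count of 0 says little. *Sox10* differed by only -0.07 between PNs and controls (exact p = 0.846), *Foxd3* by 0.01 (exact p = 0.945), *Tfap2a* by -0.03 (exact p = 0.951), and *Nr2f2* by -0.01 (exact p = 0.995). *Pou3f2* was 0.68 higher relative to the markers, with every PN above every control (exact p = 0.00549, the smallest that 11 against 3 allows, adjusted p = 0.11). *Pax3* was 1.77 lower (exact p = 0.011, adjusted p = 0.11), with all PNs between -6.75 and -5.50 and the controls between -5.62 and -3.36. Between growth groups, *Tfap2a* was 0.60 higher in fast than in slow PNs relative to the markers (exact p = 0.0173, adjusted p = 0.115). For *Tfap2b* the scale is of little use at this level, since the difference was -0.52 with a pseudocount of 1 and 1.61 with a pseudocount of 0.1. A p that misses the threshold does not show equal levels. The mean of the markers was at most 6.65 in controls and at least 6.98 in PNs. A fit against controls cannot separate that score from the group. With the pan-Schwann score as a covariate, a fit added after the data were seen called none of the 10 factors in any comparison. Over all genes it called 208 in PNs, 0 in slow PNs, 2285 in fast PNs, and 3 between growth groups. It turned the estimate of *Sox10* in PNs to -0.24 and that of *Foxd3* to -0.87. The other PN estimates in that fit were 0.0059 for *Sox2*, 0.089 for *Tfap2a*, 0.42 for *Zeb2*, 0.49 for *Nr2f2*, 0.95 for *Pou3f2*, 1.15 for *Pou3f1*, -0.52 for *Pax3*, and 4.18 for *Tfap2b*. All but those of *Tfap2b* and *Pax3* were well below the values without the covariate.

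**Figure D4:**
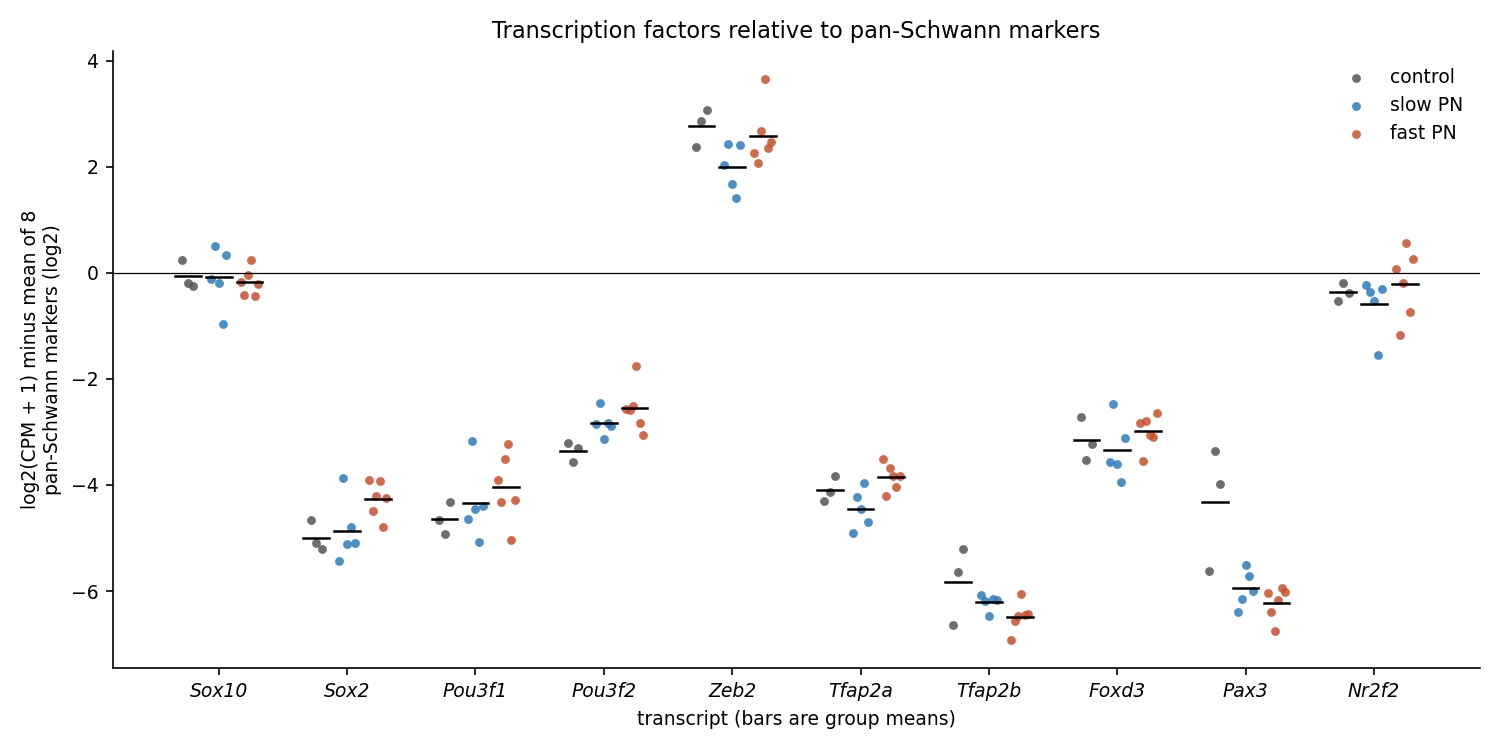
Each transcript in each library (points) as log2(CPM + 1) minus the mean of the 8 pan-Schwann markers of that library, with group means as bars. *Sox10* lies near 0 in all 3 groups, *Pou3f2* is higher in every PN than in every control, and *Pax3* is highest in 2 of the 3 controls.

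How the factors varied together was examined over the 11 PNs alone, since controls would set any correlation by group. Against *Sox10*, 2 of the 9 other factors passed. *Foxd3* had a Pearson r of 0.818 (permutation p = 0.00085, adjusted p = 0.00765) and a Spearman rho of 0.745 (permutation p = 0.0114, adjusted p = 0.0493). For *Pou3f1* r was 0.774 (permutation p = 0.00328, adjusted p = 0.0148) and rho 0.764 (permutation p = 0.00902, adjusted p = 0.0493). *Sox2* passed by rank (rho 0.718, permutation p = 0.0164, adjusted p = 0.0493) but not by r (0.528, permutation p = 0.0829, adjusted p = 0.124). *Nr2f2* (r = 0.72, permutation p = 0.0299, adjusted p = 0.0672) and *Zeb2* (r = 0.713, permutation p = 0.0169, adjusted p = 0.0507) had high r but rho of 0.364 and 0.336. *Pax3* had an r of -0.06 (permutation p = 0.881). Slow PN 1203 was the lowest for *Sox10*, and without it no factor passed over the 10 remaining PNs, with r still positive (*Foxd3* r 0.70, adjusted p = 0.199, and *Pou3f1* r 0.62, adjusted p = 0.252). Leaving out 1203 and 1198A, the 2 libraries farthest from the *Sox10* median, left r at 0.652 for *Foxd3* and 0.43 for *Pou3f1*. Within the 6 fast PNs, where *Sox10* hardly varied, r was 0.645 for *Foxd3* (exact permutation p = 0.179) and 0.407 for *Pou3f1* (exact permutation p = 0.422). No correlation was computed over the 5 slow PNs, which had the same order of levels for *Sox10*, *Foxd3*, and *Pou3f1*. The values over 11 PNs pool both growth groups.

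**Figure D5:**
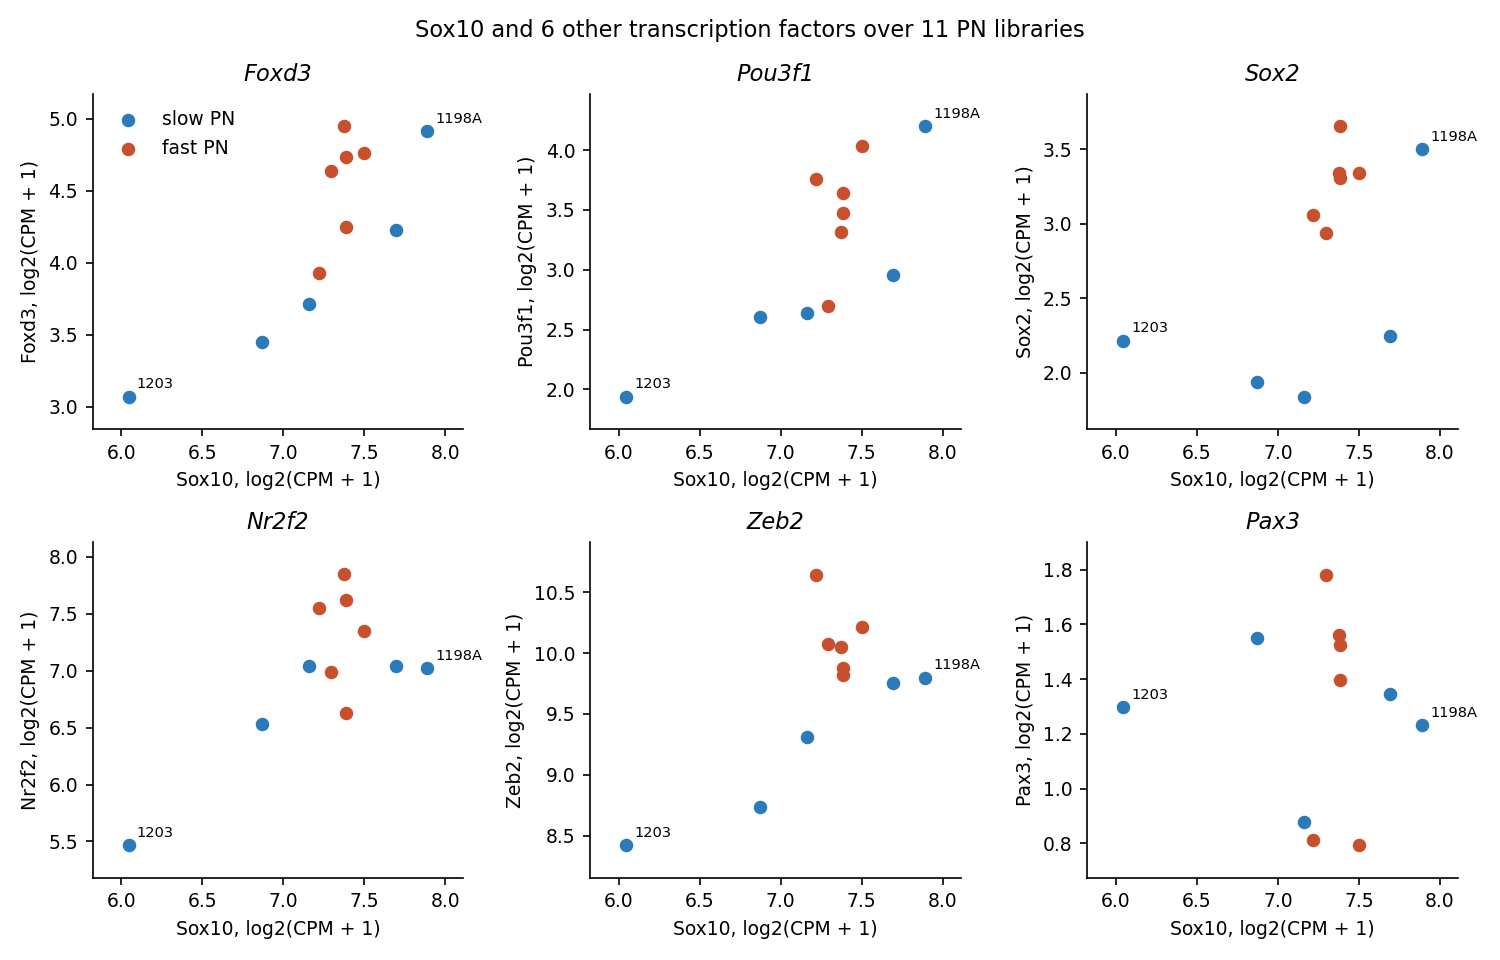
*Sox10* against 6 other transcripts, both as log2(CPM + 1), in the 5 slow and 6 fast PNs, with the 2 libraries farthest from the *Sox10* median named. Slow PN 1203 is the lowest for *Sox10*, *Foxd3*, *Pou3f1*, *Nr2f2*, and *Zeb2*, and the fast PNs form a narrow column.

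For each factor, the 2 genes with the most similar profile over the 11 PNs were taken from the tested genes with a mean of at least 10 CPM over all libraries, as a description with no test. The highest of 10338 or 10339 values of r over 11 libraries is high by selection, and these genes share the libraries' tissue makeup. For *Sox10* they were *Adamtsl1* (r = 0.948) and *Aatk* (r = 0.941), for *Sox2* *Mesdc2* (r = 0.982) and *Mtss1l* (r = 0.961), and for *Foxd3* *Emg1* (r = 0.947) and *Tle3* (r = 0.937). For *Pou3f1* they were *Dhx16* (r = 0.956) and *Rhbdf2* (r = 0.936), and for *Pou3f2* *Pcnx* (r = 0.978) and *Gpsm2* (r = 0.972). *Zeb2* was closest to *Bach1* (r = 0.977) and *Fam129a* (r = 0.975), *Tfap2a* to *Cant1* (r = 0.964) and *Apoe* (r = 0.936), and *Tfap2b* to *Zc3h12b* (r = 0.9) and *Umps* (r = 0.888). *Nr2f2* was closest to *Prelp* (r = 0.986) and *Lamb2* (r = 0.982), both genes of the extracellular matrix. For *Pax3* the values were lowest, at 0.812 for *Trappc2l* and 0.801 for *Acbd4*. Among the 10 factors themselves the most similar pair was *Sox2* and *Tfap2a* (r = 0.869), followed by *Pou3f2* and *Zeb2* (r = 0.837). These values pool slow and fast PNs, and *Tfap2a* was called between them.

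A list of 40 other regulators of the SC lineage gave a different count. This list and the 10 factors were chosen with earlier results of these data known, so the difference between their counts is a description only. Of the 37 that were tested between PNs and controls, 5 were higher, 2 were lower, and 30 did not pass, with a median log2 fold change of 0.45. Over all genes tested 12.9% were higher and 13.4% lower, so the share of higher calls in this list was near the background. *Etv1*, an ETS factor downstream of RAS-MAPK signals, was at 67.7 ± 34.2 CPM in controls (SD, n = 3), 174 ± 54.6 CPM in slow PNs (SD, n = 5), and 203 ± 14.5 CPM in fast PNs (SD, n = 6), or 1.49 higher on the log2 scale in PNs (adjusted p = 0.00168). Relatives of the 10 factors in this list were called in some cases and not in others. *Nr2f1*, the paralog of *Nr2f2*, rose from 3.38 ± 0.65 CPM in controls to 8.69 ± 3.52 in slow and 10.8 ± 2.87 CPM in fast PNs (log2 1.54, adjusted p = 0.00459), and *Zeb1*, the paralog of *Zeb2*, from 116 ± 28.8 to 192 ± 27.3 and 249 ± 48.5 CPM (log2 0.95, adjusted p = 0.00537). *Klf4* fell from 39.4 ± 12.4 to 12.9 ± 6.35 and 12.9 ± 4.79 CPM (log2 -1.61, adjusted p = 0.00299). The other calls were *Etv4* (log2 2.82), *Sox8* (log2 1.71), a close relative of *Sox10*, and *Id3* (log2 -0.65), all 3 named after their values had been seen. With control counts of 5, 10, and 6, *Etv4* needed the PNs to pass the expression filter, so its call adds nothing to the count of this list. *Sox9*, another relative of *Sox10*, was not called (log2 0.57, adjusted p = 0.396), nor were *Sox4* (adjusted p = 0.148) and *Sox11* (adjusted p = 0.318), and *Pou3f3* and *Tfap2c* did not pass the filter. In slow PNs none of the 37 was called higher and 4 were lower, in fast PNs 14 were higher and 4 lower, and the shares over all genes tested were 4.12% higher and 7.13% lower in slow PNs and 14.8% higher and 16.7% lower in fast PNs. Between growth groups 1 of 37 was called, *Egr3*, which was higher in fast PNs (log2 1.68, adjusted p = 0.0449) and was named after its value had been seen.

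Transcripts of the stages that these factors control were counted in the same way. Of 15 genes of immature and nonmyelinating SCs, 10 were higher in PNs and none lower (12.9% of all genes tested were higher), among them the cell adhesion genes *Ncam1* (log2 2.30, adjusted p = 0.000408), *Cadm2* (log2 2.07, adjusted p = 0.00116), and *Chl1* (log2 3.15, adjusted p = 0.00155), and the sodium channel *Scn7a* (log2 2.32, adjusted p = 0.00063). The 10 include *Gfap*, which with control counts of 30, 6, and 33 needed the PNs to pass the expression filter. Of 15 myelin genes, 1 was higher and none lower, and that gene was *Dhh* (log2 2.27, adjusted p = 0.000755), the ligand gene whose promoter drives Cre and not itself a component of myelin. *Egr2*, the regulator of myelination that *Pou3f1* and *Pou3f2* help to induce, was at 56.8 ± 23.6 CPM in controls (SD, n = 3), 97.5 ± 48.1 CPM in slow PNs (SD, n = 5), and 80.1 ± 18.8 CPM in fast PNs (SD, n = 6), a log2 difference of 0.63 (adjusted p = 0.231). Between fast and slow PNs, 4 of the 15 myelin genes were lower in fast PNs and none was higher, where 0.466% of all genes tested were lower. Of 14 genes of the crest and of melanocytes, 10 could be tested, and 3 were higher in PNs and none lower: *Msx2* (log2 3.54, adjusted p = 0.00299), *Snai2* (log2 1.10, adjusted p = 0.017), and *Ednrb*, which rose from 33.8 ± 10.2 CPM in controls to 60.1 ± 24.2 CPM in slow and 73.9 ± 12.6 CPM in fast PNs (adjusted p = 0.0211). *Msx2* was low, at 0.064 ± 0.0563 CPM in controls, 1.03 ± 0.542 CPM in slow PNs, and 0.687 ± 0.261 CPM in fast PNs, so its fitted fold depends on the prior count. With control counts of 1, 0, and 1 it could pass the expression filter only through the PNs, and its call adds nothing to the count of this list.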

How the data were processed

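Bulk RNA-seq of 14 mouse libraries was analysed from the deposited counts. Per the labels, libraries were made from total RNA with a NuGEN Ovation kit (RNA-Seq System v2). The submitters' processing notes name CASAVA 1.4, FastQC 0.11.0, TopHat2 2.0.9, mm10, featureCounts 1.5.2, and edgeR 3.16.5. The authors deposited whole-number counts per gene without normalization, and a second table of log2 TMM values that was not used here. No count column lacked a sample (0), and no pair of columns was identical (0).

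Here counts were filtered (filterByExpr), scaled (TMM), and tested with edgeR 4.0.16 in R 4.3.3, with Benjamini-Hochberg adjustment over all genes tested, and the fit was tested on simulated data with 200 changed genes. DESeq2 1.42.0 and limma 3.58.1 served as alternatives, and scipy 1.17.1 gave exact tests. Correlations used 100000 permutations. Intervals on log2 fold changes are 1.96 standard errors. Positions and overlaps are from GENCODE for mm10, in which 22750 genes matched by symbol and 922 by a synonym. From each list up to 4 called genes are named in order of p, or the first genes tested where fewer than 2 were called, and genes named beyond this rule were chosen after their values were seen. *Adgrg6*, *Drgx*, and *Adgre1* are listed under older symbols. Scores of tissue lists (muscle and fat) and, added after the data were seen, of pan-Schwann markers entered alternative fits. The 10 factors and all lists were chosen with earlier results of these data known. Lists overlap in *Ngfr*, *Egr2*, *Ednrb*, and *Mitf*.

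Neither labels nor methods give batch or sex per library, so preparation and tissue cannot be told apart. Depth was 9596773 to 17594164 counts per library.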

Additional observations from a re-analysis of the deposited data

Results flagged for a closer look

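Slow PN 1198A lay far from the other slow PNs for both *Sox2*, at 10.3 CPM against 2.58 to 3.76 CPM, and *Pou3f1*, at 17.4 CPM against 2.83 to 6.75 CPM. Relative to pan-Schwann markers, *Tfap2b* was low in slow PN 1202, at -6.46 on the log2 scale, a library with 5 counts of the gene, and *Nr2f2* was low in slow PN 1203, at -1.54. In all, 4 of 40 groups of values had such a library, and chance gives about 1 in 20. Among the 10 factors *Tfap2a* had the one difference between growth groups that passed edgeR's test, with a log2 fold change of 1.026 (adjusted p = 0.0484). That call was at the edge of the threshold and was lost with RLE scaling, with limma-voom, and with some libraries left out.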

How the results depend on the processing

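Among the 10 factors, 8 were called in PNs, 2 in slow PNs, 9 in fast PNs, and 1 between fast and slow PNs. With an adjusted p under 0.01 the counts were 4 in PNs, 0 in slow PNs, and 0 between growth groups, and with an adjusted p under 0.1 there were 4 in slow PNs. With muscle and fat scores in the fit there were 1 in PNs and 0 in slow PNs, in fast PNs, and between growth groups. With the pan-Schwann score, added after the data were seen, there were 0 in each of the 4 comparisons, with 208, 0, 2285, and 3 calls over all genes in PNs, slow PNs, fast PNs, and between growth groups. In slow PNs there was 1 with a mean of at least 1 CPM and 1 with the length and GC trend removed, and there were 5 with DESeq2 and 5 with all 3 groups in one fit. Between growth groups there were 2 with DESeq2, and 0 with RLE scaling, without a filter on low counts, and with limma-voom. When each library was left out, the counts ran from 2 to 9 in PNs, from 0 to 7 in slow PNs, from 6 to 9 in fast PNs, and from 0 to 3 between growth groups, where 3 were called without slow PN 1198A. Correlations with *Sox10* that passed ran from 0 to 4.

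With the pan-Schwann score the log2 fold change turned in PNs for *Sox10* (-0.24) and *Foxd3* (-0.87), and in slow PNs for *Sox10* (-0.92), *Sox2* (-1.28), *Pou3f1* (-0.042), *Zeb2* (-0.50), *Foxd3* (-1.35), *Pax3* (0.75), and *Nr2f2* (-0.31). It also turned in fast PNs for *Sox10* (-0.10) and *Foxd3* (-0.35), and between growth groups for *Sox10* (-0.14), *Tfap2b* (-0.26), and *Pax3* (-0.30). With muscle and fat scores it turned for *Foxd3* in fast PNs (-0.48) and for *Tfap2b* between growth groups (-0.0003326). Relative to pan-Schwann markers, log2(CPM + 0.1) turned *Tfap2a* (0.25) and *Tfap2b* (1.61) in PNs, and the mean of *S100b* and *Erbb3* turned *Sox10* between growth groups (0.036). Leaving out libraries gave *Pax3* from -0.86 to 0.20 in PNs, -0.999 to 0.086 in slow PNs, and -0.87 to 0.20 in fast PNs. Between growth groups it gave *Tfap2b* from -0.10 to 0.20 and *Sox10* from -0.10 to 0.30. Relative levels in PNs ran from -0.17 to 0.085 for *Sox10*, -0.18 to 0.23 for *Foxd3*, -0.11 to 0.10 for *Nr2f2*, and -0.14 to 0.10 for *Tfap2a*, and *Sox10* between growth groups from -0.32 to 0.055. The correlation of *Pax3* with *Sox10* ran from -0.09067 to 0.03266. The cause of these changes was not tested.

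No paired analysis was possible because the labels give no replicate numbers that are shared between groups. Depth limited *Tfap2b*, *Pax3*, and the control values of *Sox2*, which rest on few counts.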

Other observations

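None of the 13 sensory neuron markers was called between PNs and controls. Of the skeletal muscle markers 8 of 14 were lower in PNs and of the fat markers 5 of 13, with median log2 fold changes of -3.25 and -2.49. Over all genes tested 13.4% were called lower, and none of 4 tested keratinocyte markers was called. The highest neuron marker sum was 14600 CPM in slow PN 1203, the PN with the lowest *Sox10*, *Foxd3*, *Pou3f1*, *Zeb2*, and *Nr2f2*.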
